A study of Mus musculus with 12 samples.

Results

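The genes described are 8 members of the program that marks regulatory T cells and of the costimulatory branch of the tumour necrosis factor (TNF) receptor family: Foxp3, Il2ra, Ikzf2, Ccr8, Tnfrsf18, Tnfrsf4, Tnfrsf9 and Cd27. They were taken by symbol from a table of read counts over 24956 gene symbols, and all 8 were found there. Of these, 6 had enough counts for the test across genes. Foxp3 and Ccr8 did not, and are given as raw counts.

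Regulatory T cells are CD4 T cells that restrain other immune cells. Foxp3 is the transcription factor that defines them. Il2ra encodes the alpha chain of the interleukin 2 receptor, through which they take up interleukin 2. Ikzf2 encodes Helios, a zinc finger transcription factor found in many of them, and Ccr8 encodes a chemokine receptor that regulatory T cells in tumours often carry. Tnfrsf18 (GITR), Tnfrsf4 (OX40), Tnfrsf9 (4-1BB) and Cd27 are receptors that, on binding their ligands, send signals through TRAF adaptor proteins to NF-kB and sustain activated T cells. These receptors are found on conventional and regulatory T cells and also on natural killer cells, so none of them marks regulatory T cells by itself.

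The data came from 12 tumours, 6 grown in Alb-Cre+/+ Stat3f/f mice and 6 in wild-type (WT) mice. In the Alb-Cre Stat3f/f hosts the albumin promoter drives Cre recombinase, which removes the floxed Stat3 gene from hepatocytes, so the liver and not the tumour is the altered tissue. All tumours were grown from PDA.69, a single pancreatic ductal adenocarcinoma line from KPC mice, which carry pancreas-specific oncogene and tumour suppressor mutations. Its label calls it T cell low, and the values hold for this 1 line. RNA was scraped from fixed, paraffin-embedded tissue on slides and read near the 3' ends of transcripts, which gives about 1 tag per transcript whatever its length. The labels do not give host age, sex or treatment. Whether any tumours shared a mouse is not stated either, so p-values reflect only how these samples spread.

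The libraries held 6083638 to 8085609 counts in Alb-Cre Stat3f/f tumours and 5691707 to 7594880 in WT tumours. Levels are given as CPM, the counts of a gene scaled to the size of its library by the TMM method. Stat3, the gene deleted in the hosts' hepatocytes, had 202 to 302 CPM in Alb-Cre Stat3f/f tumours and 232 to 273 CPM in WT tumours (log2 fold change 0.00 ± 0.10), which says nothing of its deletion in the liver. The tumours differed in normal exocrine pancreas. Acinar genes took 0.62 to 34.2% of counts in Alb-Cre Stat3f/f tumours, with a median of 21.8%, against 0.479 to 17.6% in WT tumours, with a median of 3.15%. The share was over 15% in Alb-Cre Stat3f/f tumours 1 to 4 and in WT tumour 5, called acinar-rich here. The ductal tumour markers (8 of 8 tested, none at 0) summed to 2650 to 3360 CPM in Alb-Cre Stat3f/f tumours and 3580 to 4240 CPM in WT tumours, without overlap. All 8 had a negative log2 fold change and 2 fell, Sox9 (-0.49 ± 0.10) and Krt7 (-0.59 ± 0.12), with Benjamini-Hochberg adjusted p of 0.0103 and 0.0113 by edgeR's quasi-likelihood test. Neither passed without the acinar-rich tumours (0.16 for Sox9 and 0.23 for Krt7).

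In the mouse genome (GRCm38) the 8 genes lie on 6 chromosomes. Tnfrsf4 (chr4:156013843-156016612, plus strand) and Tnfrsf18 (chr4:156026164-156028895, plus strand) are neighbours, 9551 bases apart with 0 protein-coding genes between them, and Tnfrsf9 (chr4:150914562-150946102, plus strand) lies on the same chromosome. Il2ra is at chr2:11642807-11693193 on the plus strand, Ikzf2 at chr1:69531214-69687245 on the minus strand and Cd27 at chr6:125232622-125237010 on the minus strand. Foxp3 is at chrX:7573644-7595245 and Ccr8 at chr9:120092114-120094906, both on the plus strand. RefSeq (GRCm38.p6) gave a promoter for 7 of the 8 genes, all but Ikzf2. The 250 bases before the start site are shown for Tnfrsf18, the receptor with the smallest p-value below, for Tnfrsf9, the receptor whose fold change had the opposite sign, and for Il2ra. They are at chr4:156026072-156026321, chr4:150919905-150920154 and chr2:11642542-11642791, all on the plus strand, read 5′ to 3′. RefSeq listed 2 promoters for Tnfrsf9, and only the first listed is shown and described. The RefSeq starts used for Tnfrsf18 and Tnfrsf9 lie inside the genes as annotated above. Capitals mark the letters of a motif searched on both strands: GGGANNNNCC, an NF-kB type pattern, TGANTCA, an AP-1 type pattern, or TTCNNNGAA, a STAT type pattern.
Tnfrsf18: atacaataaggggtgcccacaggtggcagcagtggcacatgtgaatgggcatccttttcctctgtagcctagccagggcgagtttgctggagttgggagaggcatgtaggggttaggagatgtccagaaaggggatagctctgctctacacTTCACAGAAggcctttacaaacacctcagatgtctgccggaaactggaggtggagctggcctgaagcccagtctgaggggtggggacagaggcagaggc
Tnfrsf9: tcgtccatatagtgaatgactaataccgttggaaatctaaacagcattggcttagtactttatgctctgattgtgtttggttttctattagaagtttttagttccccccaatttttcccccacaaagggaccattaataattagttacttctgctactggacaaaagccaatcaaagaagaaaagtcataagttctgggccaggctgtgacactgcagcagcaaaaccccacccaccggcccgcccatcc
Il2ra: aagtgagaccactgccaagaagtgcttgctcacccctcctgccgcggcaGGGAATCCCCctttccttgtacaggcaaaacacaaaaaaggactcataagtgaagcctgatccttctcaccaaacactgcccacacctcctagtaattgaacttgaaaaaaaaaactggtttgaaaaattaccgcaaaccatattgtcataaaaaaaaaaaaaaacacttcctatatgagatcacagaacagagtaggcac
The Il2ra window held 1 NF-kB type pattern and the Tnfrsf18 window 1 STAT type pattern, while the Tnfrsf9 window shown held none of the 3. Of the windows not shown, that of Ccr8 held 1 NF-kB type pattern. Those of Foxp3 (the first of 2 listed), Tnfrsf4 and Cd27 held none of the 3. Over all 32851 RefSeq windows of this length, 17.6% held the NF-kB type pattern, 6.75% the AP-1 type and 7.02% the STAT type. The STAT type pattern of the Tnfrsf18 window lies within the gene as annotated above and not before it. The letters alone describe the windows and show no binding.

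The costimulatory receptors did not share the sign of their fold change. Tnfrsf18, Tnfrsf4 and Cd27 had about double the level in Alb-Cre Stat3f/f tumours as in WT tumours, at 2.13-fold, 1.75-fold and 1.89-fold, and none of them passed the test across all genes. Tnfrsf9 had the opposite sign, at 0.678 of the WT level, which also did not pass. Foxp3 had 11 counts in all Alb-Cre Stat3f/f tumours together and 16 in all WT tumours, and Ccr8 had 2 counts in Alb-Cre Stat3f/f tumours and 0 in WT tumours. By edgeR's quasi-likelihood test, with p-values adjusted by Benjamini-Hochberg over 12856 genes, 0 of the 6 tested members passed an adjusted p of 0.05, against 2.98% of all tested genes in either direction, 2.23% higher and 0.747% lower. At an unadjusted p under 0.05 there were 3 members, Tnfrsf18, Tnfrsf4 and Cd27, against 2490 of all 12856 tested genes. DESeq2 called 1 member, Tnfrsf18, against 897 of the 14967 genes it tested. The median log2 fold change (Alb-Cre Stat3f/f over WT) was 0.87 over the 6 tested members and 0.00 over all tested genes. In bulk tumour RNA, fewer cells of a type and less RNA per cell cannot be told apart.

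**Figure D1:**
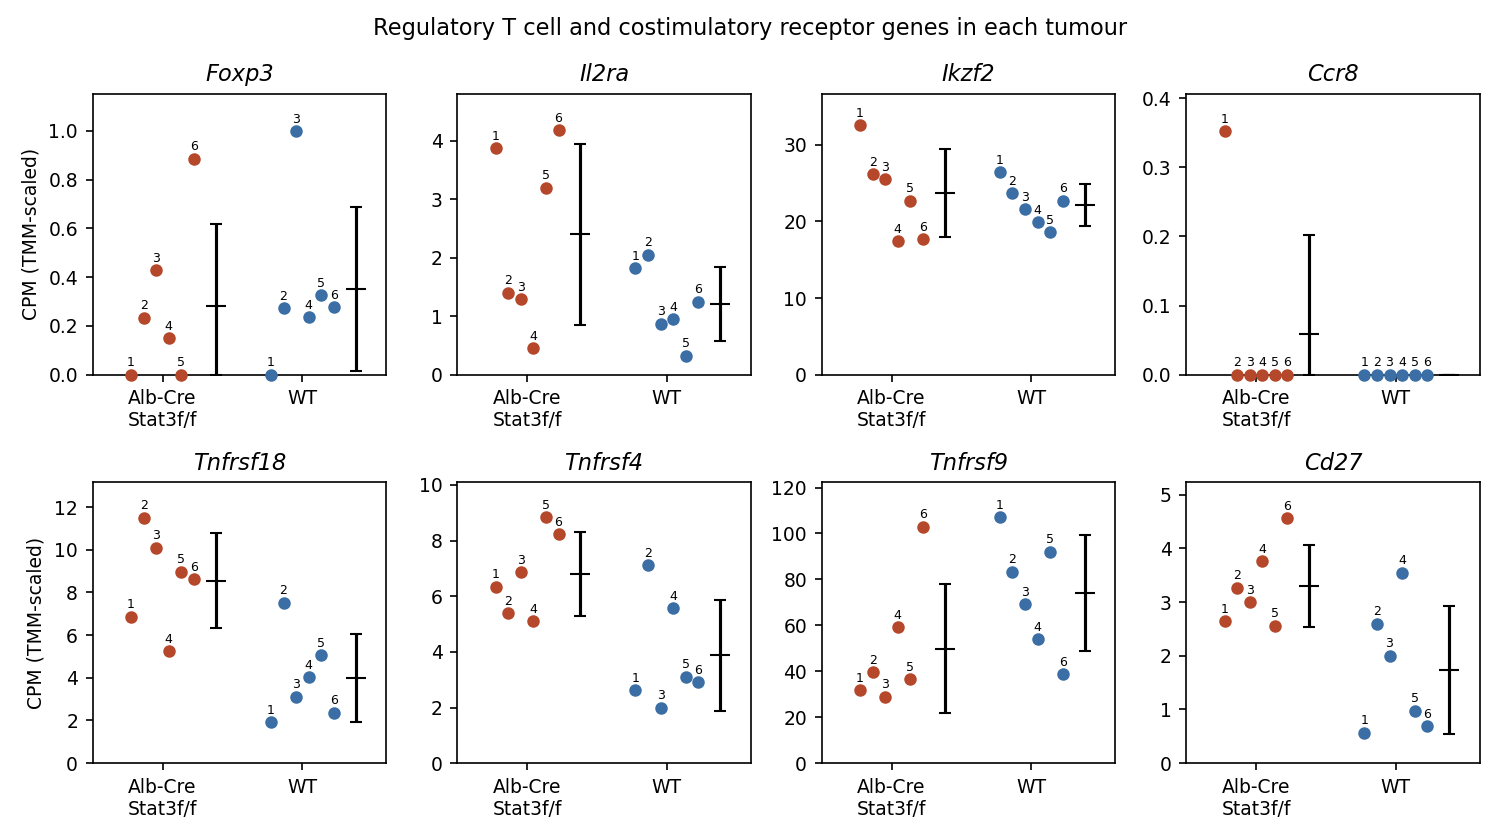
Level of each gene in TMM-scaled CPM (linear axis) in the 6 Alb-Cre Stat3f/f tumours (red, left) and the 6 WT tumours (blue, right), numbered by tumour, with the mean ± SD beside each group and the lower bar cut at 0. Tnfrsf18 was above every WT tumour in 4 Alb-Cre Stat3f/f tumours, Tnfrsf9 was below every WT tumour in 3, and Ccr8 had counts in Alb-Cre Stat3f/f tumour 1 alone.

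Among the transcription factors, Foxp3 was close to the limit of detection in both hosts. Its raw counts were 0, 1, 2, 1, 0 and 7 in Alb-Cre Stat3f/f tumours 1 to 6, and 0, 2, 8, 2, 2 and 2 in WT tumours 1 to 6. A count was present in 4 of 6 Alb-Cre Stat3f/f tumours and 5 of 6 WT tumours, and the groups overlapped. Alb-Cre Stat3f/f tumour 6 held 7 of the 11 counts of its group, and WT tumour 3 held 8 of 16. At these totals 3 counts over a group correspond to 0.0811 CPM in Alb-Cre Stat3f/f tumours and 0.0654 CPM in WT tumours, and Foxp3 averaged 0.283 ± 0.337 CPM in Alb-Cre Stat3f/f tumours and 0.352 ± 0.337 CPM in WT tumours (SD, n = 6 each). The ratio of summed counts per summed library size was 0.634, with an exact binomial 95% interval of 0.266 to 1.45. With TMM-scaled library sizes it was 0.854 (0.358 to 1.96). These intervals cover counting error and not the spread between tumours. The edgeR quasi-likelihood fit without a low-count filter, which includes that spread, gave a log2 fold change of -0.29 ± 1.04 (Benjamini-Hochberg adjusted p = 0.921). The difference in mean CPM was -0.0688 (exact two-sided permutation p = 0.68, 1 after adjustment over Foxp3 and Ccr8), and its sign turned without WT tumour 3, to 0.0604, and without the acinar-rich tumours, to 0.0864. The long non-coding RNA Flicr, which lies within Foxp3 and in mice is known to lower Foxp3 expression, had 2.1 CPM in Alb-Cre Stat3f/f tumours and 1.71 CPM in WT tumours (edgeR's quasi-likelihood test, log2 fold change 0.31 ± 0.43, Benjamini-Hochberg adjusted p = 0.737). Flicr was named after its values were seen.

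Ikzf2 was far better counted and nearly level between hosts. Its counts summed to 849 in Alb-Cre Stat3f/f tumours and 1024 in WT tumours, against 276 and 160 for Cd4 and 11 and 16 for Foxp3. Which cells carried Ikzf2 was not tested, so its level is not a measure of regulatory T cells. Its raw counts ran from 112 to 185 in Alb-Cre Stat3f/f tumours and from 114 to 232 in WT tumours. Its CPM ran from 17.4 through a median of 24.1 to 32.6 in Alb-Cre Stat3f/f tumours, against 18.6, 22.2 and 26.4 in WT tumours. Alb-Cre Stat3f/f tumour 1 lay above every WT tumour and tumours 4 and 6 lay below every WT tumour. The log2 fold change was 0.09 ± 0.16 (SE), with an interval of 2 SE from -0.23 to 0.41 (Benjamini-Hochberg adjusted p = 0.806, edgeR's quasi-likelihood test). Its sign turned without Alb-Cre Stat3f/f tumour 1, to -0.02, and without the acinar-rich tumours, to -0.18.

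The interleukin 2 receptor was represented by Il2ra, the alpha chain, and by the signalling chains Il2rb and Il2rg that T cells and natural killer cells share. Il2ra had 22, 6, 6, 3, 25 and 33 counts in Alb-Cre Stat3f/f tumours 1 to 6, and 16, 15, 7, 8, 2 and 9 in WT tumours 1 to 6. In CPM, Alb-Cre Stat3f/f tumours 1, 5 and 6 lay above every WT tumour, and the other Alb-Cre Stat3f/f tumours lay within the WT range. The means were 2.4 ± 1.55 CPM in Alb-Cre Stat3f/f tumours and 1.21 ± 0.639 CPM in WT tumours (SD, n = 6 each). The log2 fold change of Il2ra was 0.99 ± 0.50, with an interval of 2 SE from -0.02 to 2.00 (Benjamini-Hochberg adjusted p = 0.29, edgeR's quasi-likelihood test).

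Both signalling chains rose in Alb-Cre Stat3f/f tumours. Il2rb ran from 7.81 through 13.6 to 20.3 CPM in Alb-Cre Stat3f/f tumours, against 2.27, 4.1 and 7.66 CPM in WT tumours, without overlap. Its log2 fold change was 1.56 ± 0.30 (edgeR's quasi-likelihood test, Benjamini-Hochberg adjusted p = 0.00792). Il2rg ran from 53.5 through 64.4 to 92.4 CPM in Alb-Cre Stat3f/f tumours, against 15.4, 35.4 and 52 CPM in WT tumours, again without overlap. Its log2 fold change was 0.97 ± 0.22 (edgeR's quasi-likelihood test, Benjamini-Hochberg adjusted p = 0.0275). The call of Il2rg was lost without any 1 of Alb-Cre Stat3f/f tumours 1, 3 or 6 or WT tumours 1, 2 or 4 (adjusted p up to 0.0705), without the low-count filter (0.0506) and with the acinar content as a covariate (0.0937). Without the acinar-rich tumours neither passed, at 0.0802 for Il2rb and 0.112 for Il2rg. Of the 11 genes listed for interleukin 2 receptor signalling, all tested, these 2 rose, 0 fell and 9 did not pass, with a median log2 fold change of 0.21. Among the 9 were Stat5a (0.03 ± 0.23) and Stat5b (0.02 ± 0.13), the transcription factors that the receptor activates. Interleukin 2 itself (Il2) had 6 counts in Alb-Cre Stat3f/f tumours, 5 of them in tumour 2, and 6 counts in WT tumours.

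Tnfrsf18 came closest of the 8 genes to passing the test. It ran from 5.26 through a median of 8.8 to 11.5 CPM in Alb-Cre Stat3f/f tumours (35 to 70 counts), against 1.93, 3.57 and 7.52 CPM in WT tumours (17 to 55 counts). Alb-Cre Stat3f/f tumours 2, 3, 5 and 6 lay above every WT tumour, and WT tumour 2 alone reached into the Alb-Cre Stat3f/f range. The log2 fold change was 1.09 ± 0.31 (Benjamini-Hochberg adjusted p = 0.0578, edgeR's quasi-likelihood test). The gene passed with DESeq2 (adjusted p = 0.019), without the low-count filter (0.046), without WT tumour 2 (0.018) and without Alb-Cre Stat3f/f tumour 4 (0.0332). It did not pass with the acinar content as a covariate (log2 fold change 1.05, adjusted p = 0.138) or without the acinar-rich tumours (1.22, adjusted p = 0.256).

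Tnfrsf4, its neighbour on chromosome 4, ran from 5.11 through 6.6 to 8.84 CPM in Alb-Cre Stat3f/f tumours (23 to 69 counts), against 2, 3.01 and 7.11 CPM in WT tumours (16 to 52 counts). Alb-Cre Stat3f/f tumours 5 and 6 lay above every WT tumour, and WT tumours 2 and 4 lay within the Alb-Cre Stat3f/f range. The log2 fold change was 0.81 ± 0.31 (Benjamini-Hochberg adjusted p = 0.149, edgeR's quasi-likelihood test).

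Cd27, found on naive and memory T cells as well as on other lymphocytes, was counted least of the 4 receptors. It had 15, 14, 14, 25, 20 and 36 counts in Alb-Cre Stat3f/f tumours 1 to 6, and 5, 19, 16, 30, 6 and 5 counts in WT tumours 1 to 6. WT tumours 1, 5 and 6 were low, and WT tumours 2 and 4 lay within the Alb-Cre Stat3f/f range. The means were 3.3 ± 0.757 CPM in Alb-Cre Stat3f/f tumours and 1.73 ± 1.19 CPM in WT tumours (SD, n = 6 each), a log2 fold change of 0.92 ± 0.42 (Benjamini-Hochberg adjusted p = 0.237, edgeR's quasi-likelihood test).

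Tnfrsf9 had the most counts of the 8 genes and pointed the other way. Its counts were 180, 169, 135, 395, 285 and 814 in Alb-Cre Stat3f/f tumours 1 to 6, and 941, 609, 554, 456, 563 and 280 in WT tumours 1 to 6. In CPM it ran from 28.9 through 38 to 103 in Alb-Cre Stat3f/f tumours, against 38.8, 76.2 and 107 in WT tumours. Alb-Cre Stat3f/f tumours 1, 3 and 5 lay below every WT tumour, while tumour 6 was near the top of the WT range. The log2 fold change was -0.56 ± 0.35, with an interval of 2 SE from -1.26 to 0.14 (Benjamini-Hochberg adjusted p = 0.42, edgeR's quasi-likelihood test). It was -0.92 without Alb-Cre Stat3f/f tumour 6 (adjusted p = 0.0823) and -0.01 without the acinar-rich tumours, which leaves 2 Alb-Cre Stat3f/f and 5 WT tumours.

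Foxp3 was then set against each costimulatory receptor in the same libraries, as Foxp3 counts per 100 receptor counts, a ratio that does not depend on how libraries are scaled. Foxp3 had 3.57 counts per 100 Tnfrsf18 counts in Alb-Cre Stat3f/f tumours and 8.94 in WT tumours. Per 100 Tnfrsf4 counts it had 4.25 in Alb-Cre Stat3f/f tumours and 8.99 in WT tumours, and per 100 Cd27 counts it had 8.87 in Alb-Cre Stat3f/f tumours and 19.8 in WT tumours. Against these 3 receptors the log2 ratio of the hosts was -1.30, -1.06 and -1.13, and against Tnfrsf9 it was 0.26, with 0.556 Foxp3 counts per 100 Tnfrsf9 counts in Alb-Cre Stat3f/f tumours and 0.47 in WT tumours. None of the 4 differences passed an exact permutation test (two-sided, all relabellings of the tumours). The exact permutation p was 0.249 for Tnfrsf18, 0.385 for Tnfrsf4, 0.251 for Cd27 and 0.801 for Tnfrsf9, and at least 0.502 after Benjamini-Hochberg adjustment over 12 ratios.

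Counting error in both genes leaves these ratios wide, before the spread between tumours, which the intervals below do not cover. For Foxp3 over Tnfrsf18 the 95% counting interval of the log2 ratio was -2.61 to -0.09, and for Foxp3 over Tnfrsf4 it was -2.37 to 0.16. Without WT tumour 3 the log2 ratio was -0.56 for Tnfrsf18, -0.24 for Tnfrsf4 and -0.49 for Cd27. Without Alb-Cre Stat3f/f tumour 6 the value was -2.30 for Tnfrsf18 and -1.99 for Cd27, and the Tnfrsf9 ratio turned to -0.33. The Tnfrsf9 ratio also turned without WT tumour 1, to -0.21.

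The same ratio was formed with the T cell receptor genes Cd3e, Cd3d, Cd3g and Cd247 as the denominator, to compare each gene with the T cell transcripts of its own tumour. These 4 genes had 1211 counts in Alb-Cre Stat3f/f tumours and 691 in WT tumours. Tnfrsf18 had 25.4 counts per 100 T cell receptor counts in Alb-Cre Stat3f/f tumours and 25.9 in WT tumours (log2 ratio -0.03, exact permutation p = 0.909). Tnfrsf4 had 21.4 in Alb-Cre Stat3f/f tumours and 25.8 in WT tumours (-0.27, exact permutation p = 0.149), and Cd27 had 10.2 in Alb-Cre Stat3f/f tumours and 11.7 in WT tumours (-0.20, exact permutation p = 0.517). The difference in these proportions did not pass the permutation test for any of the 3 receptors. The 95% counting interval was -0.33 to 0.28 for Tnfrsf18, -0.58 to 0.05 for Tnfrsf4 and -0.63 to 0.25 for Cd27. Il2ra had 7.84 in Alb-Cre Stat3f/f tumours and 8.25 in WT tumours (-0.08, exact permutation p = 0.874).

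Tnfrsf9 and Ikzf2 had lower values relative to the T cell receptor genes in Alb-Cre Stat3f/f tumours, and neither difference was past the adjusted threshold. Tnfrsf9 had 117, 117, 113, 244, 102 and 231 counts per 100 T cell receptor counts in Alb-Cre Stat3f/f tumours 1 to 6, and 1290, 358, 543, 244, 640 and 394 in WT tumours 1 to 6. All 6 Alb-Cre Stat3f/f tumours lay below every WT tumour, but tumour 4 only barely, at 243.8 against 243.9 in WT tumour 4. The log2 ratio was -1.59 (exact permutation p = 0.00433, adjusted p = 0.052 over 12 ratios), where the smallest p the relabellings can give is 0.00216. It passed when the log ratios of single tumours were averaged (-1.79, exact permutation, adjusted p = 0.026), with Cd3e alone as the denominator (-1.63, exact permutation, adjusted p = 0.026) and without WT tumour 4 (-1.84, exact permutation, adjusted p = 0.026), and it did not pass in the other settings tried. Among these, the replicate block and the set without acinar-rich tumours allow no p under 0.0312 and 0.0476, too large for 1 ratio to pass after adjustment. The log2 fold change of Tnfrsf9 itself was -0.56 and the median of the 4 T cell receptor genes was 1.06, so the ratio combines both. Ikzf2 had 70.1 counts per 100 T cell receptor counts in Alb-Cre Stat3f/f tumours and 148 in WT tumours, with 4 Alb-Cre Stat3f/f tumours below every WT tumour (-1.08, exact permutation p = 0.0216, adjusted p = 0.13). In TMM-scaled levels Ikzf2 itself was nearly level (0.09 ± 0.16), beside the same median of 1.06 for the denominator genes. Its raw counts summed to 849 in Alb-Cre Stat3f/f tumours and 1024 in WT tumours, so how much each part adds depends on the scaling. Foxp3 had 0.908 in Alb-Cre Stat3f/f tumours and 2.32 in WT tumours (-1.33, exact permutation p = 0.203), and was -0.60 without WT tumour 3 and -2.19 without Alb-Cre Stat3f/f tumour 6.

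**Figure D2:**
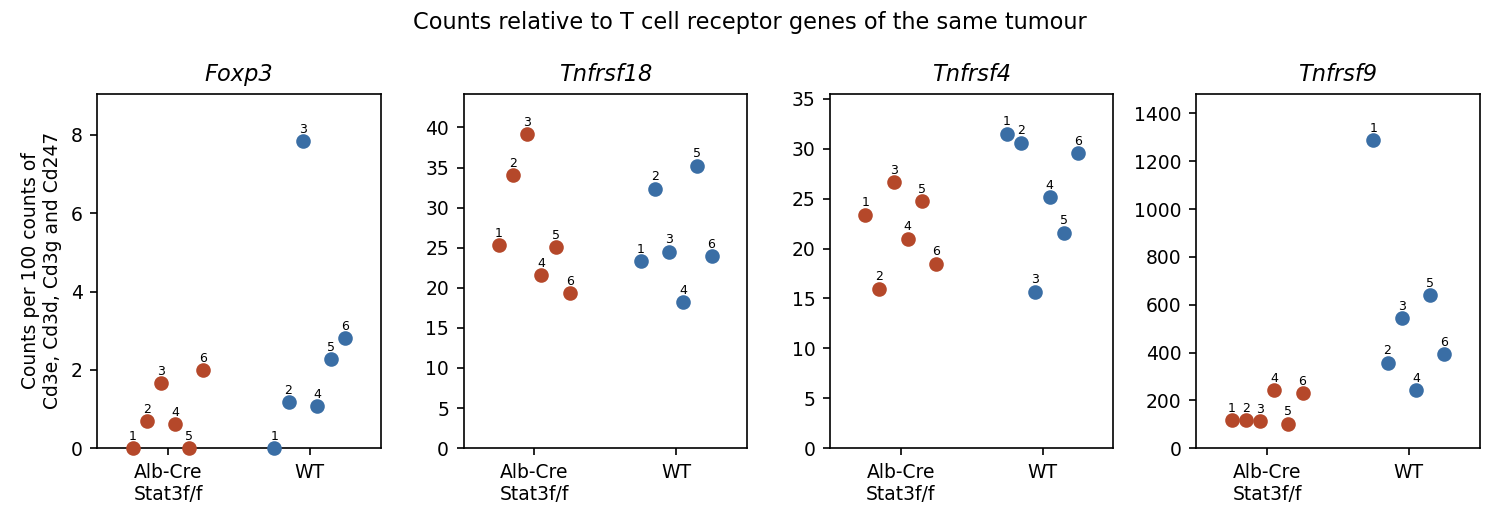
Counts of Foxp3, Tnfrsf18, Tnfrsf4 and Tnfrsf9 per 100 counts of Cd3e, Cd3d, Cd3g and Cd247 together (linear axes), 1 point per tumour, numbered, with Alb-Cre Stat3f/f tumours in red on the left and WT tumours in blue on the right. Tnfrsf18 spanned 19.3 to 39.2 in Alb-Cre Stat3f/f tumours and 18.2 to 35.2 in WT tumours, while Tnfrsf9 spanned 102 to 244 in Alb-Cre Stat3f/f tumours and 244 to 1290 in WT tumours.

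Ccr8 and its ligands differed widely in level. Ccr8 had 2 counts, both in Alb-Cre Stat3f/f tumour 1, and 0 counts in the other 5 Alb-Cre Stat3f/f tumours and in all 6 WT tumours, where a count of 0 allows up to 0.0654 CPM over the group. No fold change is given, since both groups were at or under 3 counts. Ccl8, a chemokine that binds Ccr8 in mice, rose in Alb-Cre Stat3f/f hosts. It ran from 139 through 240 to 420 CPM in Alb-Cre Stat3f/f tumours, against 65.4, 95.2 and 157 CPM in WT tumours, with 5 Alb-Cre Stat3f/f tumours above every WT tumour. Its log2 fold change was 1.33 ± 0.27 (edgeR's quasi-likelihood test, Benjamini-Hochberg adjusted p = 0.0235). The call was lost without Alb-Cre Stat3f/f tumour 1 or WT tumour 1, 3 or 4 (adjusted p up to 0.0605), with the acinar content as a covariate (0.0884) and without the acinar-rich tumours (0.0913). Ccl1, the other Ccr8 ligand, had 3.12 ± 1.98 CPM in Alb-Cre Stat3f/f tumours and 1.88 ± 0.726 CPM in WT tumours (SD, n = 6 each), with a log2 fold change of 0.74 ± 0.46 (edgeR's quasi-likelihood test, Benjamini-Hochberg adjusted p = 0.389).

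The ligands of the costimulatory receptors, which antigen-presenting cells display, all had too few counts for the test. Tnfsf9, the ligand of Tnfrsf9, had 3, 9, 3, 10, 3 and 8 counts in Alb-Cre Stat3f/f tumours 1 to 6, and 19, 17, 15, 21, 19 and 7 counts in WT tumours 1 to 6. Alb-Cre Stat3f/f tumours 1, 3 and 5 lay below every WT tumour in CPM, and these were the same tumours in which Tnfrsf9 lay below every WT tumour. The ratio of summed counts per summed library size was 0.339, with a 95% counting interval of 0.225 to 0.501, and 0.456 (0.302 to 0.675) with TMM scaling. In the edgeR quasi-likelihood fit without a low-count filter the Tnfsf9 log2 fold change was -1.09 ± 0.51 (Benjamini-Hochberg adjusted p = 0.283). Tnfsf18, the ligand of Tnfrsf18, had 20 counts in Alb-Cre Stat3f/f tumours, 14 of them in tumour 6, and 6 counts in WT tumours. Tnfsf4, the ligand of Tnfrsf4, had 0 counts in Alb-Cre Stat3f/f tumours and 1 in WT tumours. Cd70, the ligand of Cd27, had 4 counts in Alb-Cre Stat3f/f tumours, all in tumour 3, and 11 in WT tumours, 10 of them in tumour 4.

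The adaptors that these receptors recruit did not pass as single genes. Of 15 adaptor and NF-kB genes, all tested, 0 rose and 0 fell by edgeR or DESeq2 (2 at an unadjusted p under 0.05), 8 had a positive and 7 a negative log2 fold change, and the median was 0.02. Traf2, which binds the cytoplasmic tail of several of the receptors, had 3.66 ± 1.79 CPM in Alb-Cre Stat3f/f tumours and 6.99 ± 1.13 CPM in WT tumours (SD, n = 6 each), with 5 Alb-Cre Stat3f/f tumours below every WT tumour. Its log2 fold change was -0.90 ± 0.30 (edgeR's quasi-likelihood test, Benjamini-Hochberg adjusted p = 0.0992). It was -0.32 without the acinar-rich tumours (adjusted p = 0.803) and -1.15 without Alb-Cre Stat3f/f tumour 6, where it passed (0.0485). Traf2 and, below, Tnfrsf23 and Prdm1 had negative fold changes, as had the ductal markers above, whose part in these values was not tested. Nfkbia, an inhibitor of NF-kB that NF-kB itself induces, had a log2 fold change of 0.28 ± 0.10 (adjusted p = 0.112, same test).

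Among the 24 other TNF receptor superfamily genes 16 were tested, 0 rose, 1 fell and 15 did not pass, with a median log2 fold change of 0.21. DESeq2 called 2 lower, Tnfrsf23 and Tnfrsf10b. The gene that fell was Tnfrsf23, which in mice encodes a decoy receptor for the death ligand TRAIL. It had 30.1 ± 6.25 CPM in Alb-Cre Stat3f/f tumours and 54.6 ± 13.8 CPM in WT tumours (SD, n = 6 each), without overlap. Its fold change was -0.85 ± 0.17 on the log2 scale (edgeR's quasi-likelihood test, Benjamini-Hochberg adjusted p = 0.00847), and it did not pass without the acinar-rich tumours (-0.70, adjusted p = 0.191).

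Of 25 further genes linked to regulatory T cells 18 were tested, 1 rose, 1 fell and 16 did not pass, and the median log2 fold change was 0.37. DESeq2 called 3 higher, Satb1, Icos (adjusted p = 0.046) and Entpd1, and 1 lower, Prdm1. Satb1, a chromatin organiser needed for T cell development and kept low in mature regulatory T cells, rose. It had 8.75 ± 2.44 CPM in Alb-Cre Stat3f/f tumours and 3.9 ± 0.978 CPM in WT tumours (SD, n = 6 each), without overlap, a log2 fold change of 1.15 ± 0.25 (edgeR's quasi-likelihood test, Benjamini-Hochberg adjusted p = 0.0155). Prdm1, which encodes Blimp-1, a repressor found in effector regulatory T cells, plasma cells and some epithelia, fell. It had 18.6 ± 3.23 CPM in Alb-Cre Stat3f/f tumours and 28.1 ± 2.86 CPM in WT tumours (SD, n = 6 each), a log2 fold change of -0.60 ± 0.14 (edgeR's quasi-likelihood test, Benjamini-Hochberg adjusted p = 0.0254). Both calls were lost with the acinar content as a covariate (adjusted p = 0.0808 for Satb1 and 0.0823 for Prdm1) and without the acinar-rich tumours (0.251 for Satb1 and 0.345 for Prdm1), and that of Prdm1 also without Alb-Cre Stat3f/f tumour 1 or WT tumour 3 or 6 (up to 0.0685). Icos, a costimulatory receptor of the CD28 family abundant on regulatory and follicular T cells, had 8.19 ± 3.08 CPM in Alb-Cre Stat3f/f tumours and 4.03 ± 2.13 CPM in WT tumours (log2 fold change 1.03 ± 0.33, adjusted p = 0.0854, same test). Ctla4, the inhibitory receptor that regulatory T cells carry constantly, was below the filter with 8, 5, 8, 6, 4 and 13 counts in Alb-Cre Stat3f/f tumours 1 to 6, and 1, 5, 3, 2, 0 and 11 in WT tumours 1 to 6.

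**Figure D3:**
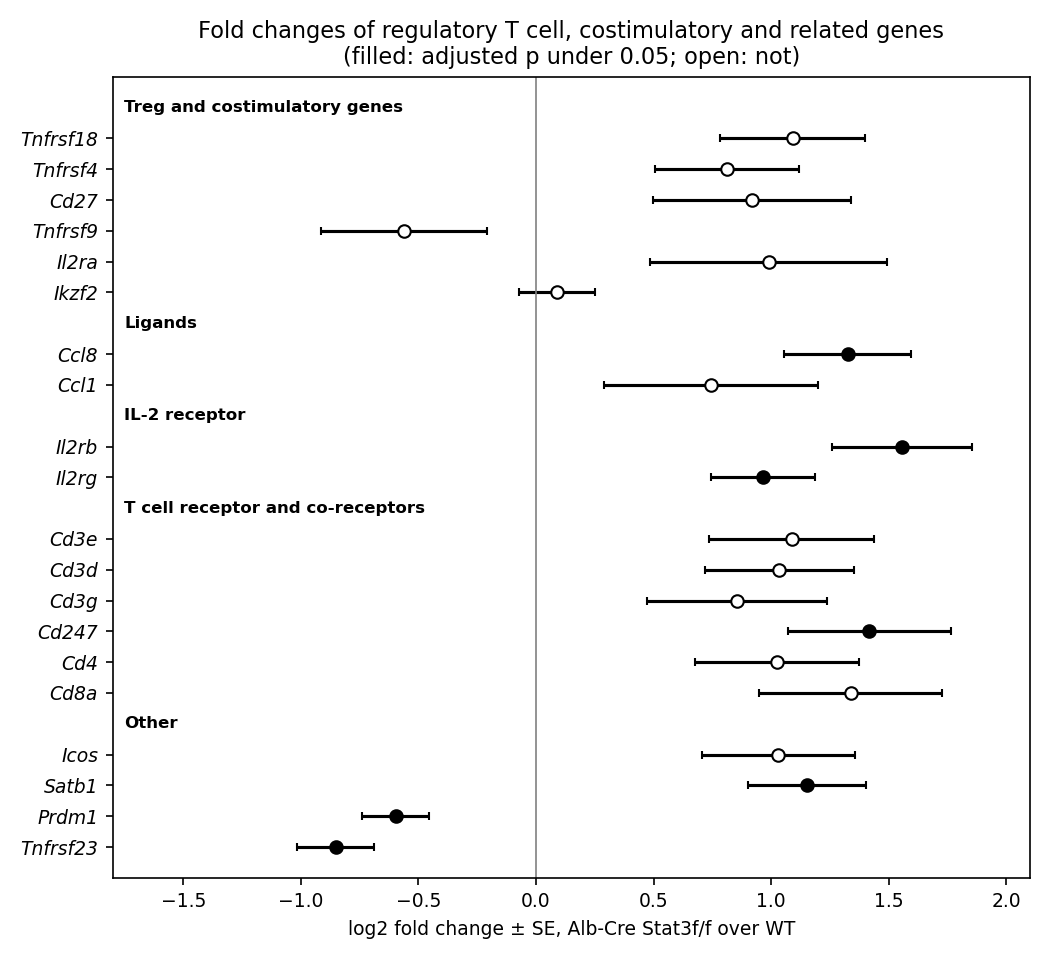
Log2 fold change (Alb-Cre Stat3f/f over WT) with its SE for the 6 tested members and related genes, from edgeR's quasi-likelihood fit, with filled points where the adjusted p was under 0.05. Il2rb, Il2rg, Ccl8, Cd247 and Satb1 are filled on the positive side and Prdm1 and Tnfrsf23 on the negative side, and none of the 6 members is filled.

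Of the 16 T cell markers 14 were tested, all 14 had a positive log2 fold change, 9 had an unadjusted p under 0.05 and 1 rose by edgeR's test, Cd247, which encodes the zeta signalling chain of that receptor. The summed T cell marker level ran from 72.7 to 144 CPM in Alb-Cre Stat3f/f tumours and from 34.1 to 72.5 CPM in WT tumours. Cd247 ran from 2.85 through 4.32 to 7.01 CPM in Alb-Cre Stat3f/f tumours, against 0.97, 1.63 and 2.74 CPM in WT tumours, a log2 fold change of 1.42 ± 0.35 (edgeR's quasi-likelihood test, Benjamini-Hochberg adjusted p = 0.0283). Its call was lost without any 1 of Alb-Cre Stat3f/f tumours 1, 2 or 6 or WT tumours 1, 3 or 6 (adjusted p up to 0.0769), with the acinar content as a covariate (0.0881) and without the acinar-rich tumours (0.247). Cd4, the co-receptor of helper and regulatory T cells, had a log2 fold change of 1.02 ± 0.35 (adjusted p = 0.109, same test), and Cd8a, which cytotoxic T cells carry, 1.34 ± 0.39 (adjusted p = 0.0698). Cd3e, Cd3d and Cd3g had 1.09, 1.03 and 0.85, with adjusted p of 0.0954, 0.0822 and 0.224. DESeq2 called 6 of the 16, namely Cd247, Cd3d (adjusted p = 0.0279), Cd3e (0.0447), Cd8a (0.0162), Cd2 and Cd8b1.

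Other cell types that express members of the family were checked by their markers, and their part in the results was not tested. Of 10 natural killer and cytotoxic markers 4 were tested (DESeq2 called 5 of the 10) and 2 rose by edgeR's test, Nkg7 (log2 fold change 1.31 ± 0.24, edgeR's quasi-likelihood test, Benjamini-Hochberg adjusted p = 0.00538) and Klrd1 (1.99 ± 0.41, adjusted p = 0.0124). The summed level of these markers was 27.9 to 59.2 CPM in Alb-Cre Stat3f/f tumours and 9.15 to 21.9 CPM in WT tumours, and none was at 0 in every tumour. By edgeR's test Nkg7 and Klrd1 also passed with the acinar content as a covariate (adjusted p = 0.0128 and 0.0441). Without the acinar-rich tumours they passed as well (0.00989 and 0.0441, same test). Of the B cell markers 5 of 8 were tested, edgeR called none (4 at an unadjusted p under 0.05) and DESeq2 called 1, Cd79b (log2 fold change 1.41, adjusted p = 0.0273). By edgeR Cd79b had 0.98 with the acinar content as a covariate (adjusted p = 0.404) and 0.10 without the acinar-rich tumours (adjusted p = 0.972). The B cell markers summed to 5.2 to 66.7 CPM in Alb-Cre Stat3f/f tumours and 5.56 to 23.2 CPM in WT tumours, and Cd79a was at 0 in all 12. The dendritic cell markers (8 of 10 tested) summed to 216 to 306 CPM in Alb-Cre Stat3f/f tumours and 204 to 241 CPM in WT tumours, and 1 of them, Ccr7, rose (log2 fold change 1.14 ± 0.28, adjusted p = 0.0274). The call of Ccr7 was lost without any 1 of Alb-Cre Stat3f/f tumours 1, 2 or 6 or WT tumours 3 or 4 (adjusted p up to 0.0643), with the acinar content as a covariate (0.0749) and without the acinar-rich tumours (0.18). Endothelial markers (8 of 8 tested, 2 at an unadjusted p under 0.05, none called by edgeR or DESeq2) summed to 117 to 253 CPM in Alb-Cre Stat3f/f tumours and 127 to 204 CPM in WT tumours. Of the mast cell and basophil markers 6 of 8 were tested, edgeR called none (2 at an unadjusted p under 0.05) and DESeq2 called 1, Kit, a growth factor receptor of mast cells (1.36, adjusted p = 0.00653). By edgeR Kit had 1.36 ± 0.37 (adjusted p = 0.0557) and passed without Alb-Cre Stat3f/f tumour 4 (0.035) or 5 (0.016) or WT tumour 1 (0.0447). Kit did not pass with the acinar content as a covariate (0.76, adjusted p = 0.313) or without the acinar-rich tumours (0.72, adjusted p = 0.684). Of the tested genes of this list 3 had a positive and 3 a negative log2 fold change, among them Mcpt8 (-0.81 ± 0.36, adjusted p = 0.225 by edgeR). The mast cell and basophil markers summed to 24 to 56.8 CPM in Alb-Cre Stat3f/f tumours and 18.2 to 63.2 CPM in WT tumours. Mast cells, dendritic cells and endothelium can express Tnfrsf9 in mice.

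Variation between tumours of the same host was described by correlation. After the mean of each genotype was subtracted, Tnfrsf18 had Pearson r = 0.88 with Cd247, 0.71 with Cd3d and 0.64 with Tnfrsf4 over 12 tumours, but 0.03 with Cd4 and -0.35 with Cd3g. Tnfrsf4 had r = 0.81 with Cd3d, 0.45 with Cd4 and -0.60 with Cd3g. Cd27 had r = 0.78 with Cd3d, 0.15 with Cd4 and -0.27 with Cd3g. Tnfrsf9 had r = 0.09 with Cd3d, 0.00 with Tnfrsf18, 0.03 with Tnfrsf4 and 0.14 with Cd27, although 0.49 with Cd3e. Ikzf2 had r = -0.38 with Cd3d, -0.50 with Cd4 and -0.51 with Tnfrsf9, but 0.08 with Cd247. Il2ra had its highest value among these genes, 0.46, with Ikzf2. Cd3g, counted 7 to 29 times per tumour, ran against the other T cell receptor genes, with r = -0.61 for Cd3e. These values describe 12 libraries that share their scaling, with few counts for several genes, and carry no test.

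**Figure D4:**
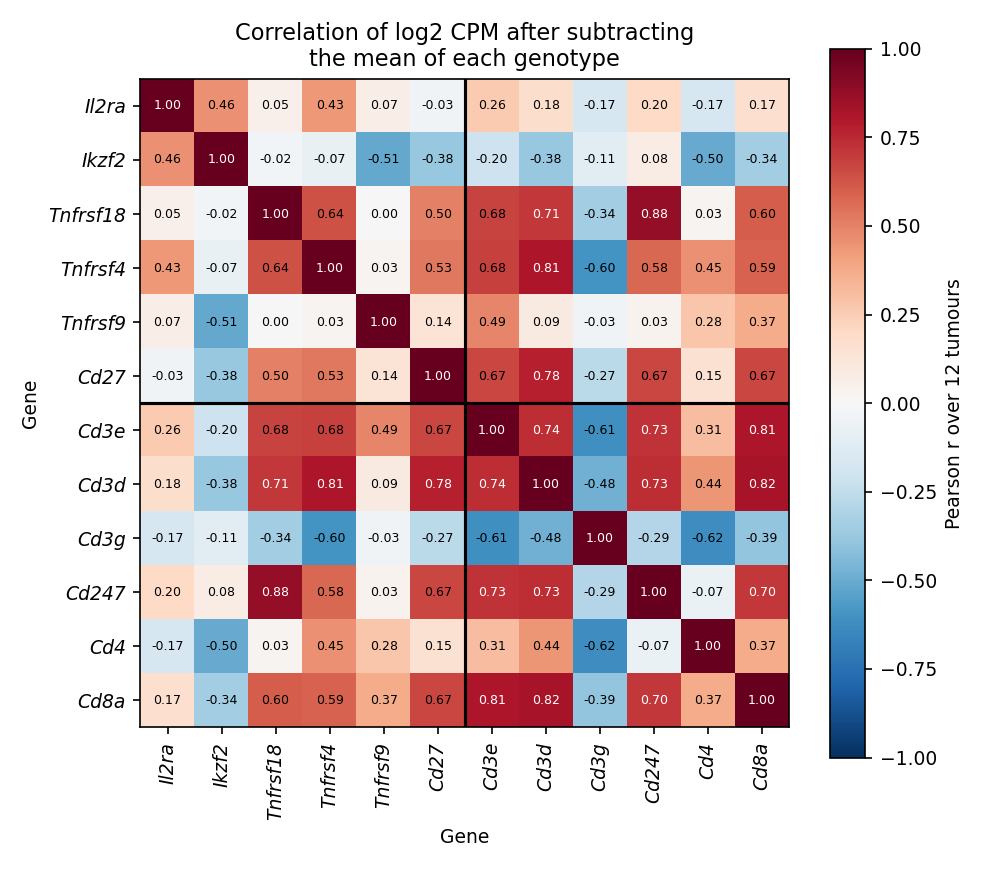
Pearson r between log2 CPM values of the 6 tested members (first 6 rows) and of T cell receptor and co-receptor genes over 12 tumours, after the mean of each genotype was subtracted (red positive, blue negative). Tnfrsf18, Tnfrsf4 and Cd27 have r of 0.50 to 0.64 among themselves, and Tnfrsf9 has r of 0.00 to 0.14 with each of them.

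The gene most like each member over the 12 tumours, among 12855 others, was found by the same measure, so high values are expected from the choice alone. For Tnfrsf18 these were Tbc1d4 (r = 0.95), Adipoq (0.95) and Cytip (0.93). For Tnfrsf9 they were Dusp2 (0.91), Lrrc17 (0.85) and Mmp12 (0.85), and for Tnfrsf4 Disp1 (0.93), Mettl8 (0.89) and Ccs (0.87). For Cd27 they were Synrg (0.91), AW112010 (0.90) and H2-Aa (0.88). For Il2ra they were Tyk2 (0.90), Bgn (0.89) and Nrp (0.88), and for Ikzf2 Ints14 (0.91), Rhbdf2 (0.89) and Loxl1 (0.89). Of these 18 genes 1, Cytip, was called between hosts, with a log2 fold change of 1.13 (edgeR's quasi-likelihood test, Benjamini-Hochberg adjusted p = 0.00403).

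Several of the genes overlap others in the GRCm38 annotation, and no source used here gives the strand setting of the counting, so reads of overlapping genes cannot be told apart. Tnfrsf9 overlaps Camta1 on the opposite strand, which had 7.31 CPM in Alb-Cre Stat3f/f tumours and 6.17 CPM in WT tumours (log2 fold change 0.22, edgeR's quasi-likelihood test, Benjamini-Hochberg adjusted p = 0.753). Cd27 overlaps Vamp1, which had 4.95 CPM in Alb-Cre Stat3f/f tumours and 5.93 CPM in WT tumours (-0.24, adjusted p = 0.68, same test). Foxp3 overlaps Ppp1r3f and Ccdc22 on the opposite strand and Flicr on its own strand. The level of Foxp3 in particular rests on a few reads in such a region.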

How the data were processed

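Tumour RNA from 12 samples was measured by QuantSeq 3' mRNA sequencing (FWD kit) after extraction with an RNeasy FFPE kit, per the labels' protocols. The deposited table holds whole-number counts per gene symbol, which the authors did not normalise. The submitters' processing notes name STAR and the build mm10. Versions, the counting tool, the annotation, the strand setting and filters were not given in those notes or the labels. No molecular identifiers are stated, so intervals cover counting error only. The 26 entries with a date number in place of a symbol were left out (0.069 to 0.166% of counts).

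The counts were compared with edgeR 4.0.16 in R 4.3.3: filterByExpr by genotype (minimum count 10, minimum total count 15), TMM scaling, a robust two-sided quasi-likelihood test of genotype without covariates, and Benjamini-Hochberg adjustment over all 12856 genes, with 0.05 as the threshold. DESeq2 1.42.0 was an alternative. Intervals of fold changes are 2 SE wide on each side. Exact permutation tests used all relabellings of the tumours, and count ratios had 0.5 added to each sum. Gene positions are from GENCODE M21 and promoters from RefSeq. The procedure was tested on simulated data.

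The 8 members and 15 further lists were chosen with earlier results of these data known. Named genes are all members and their ligands, Cd3e, Cd3d, Cd3g, Cd247, Cd4, Cd8a, Ctla4 and Icos, the genes called in each list or otherwise the 2 with the smallest p (the text gives part of these), and the 3 genes most correlated with each tested member. Alternatives changed the scaling, the filter, the tool, the covariates, the tumours used and the denominator. Stat3, Stat5a, Stat5b, the overlapping genes and genes called by DESeq2 alone were named outside that rule. Sample descriptions begin with numbers of unstated meaning, all smaller in the Alb-Cre Stat3f/f group than in the WT group, so whatever they order and the host genotype cannot be told apart.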

Additional observations from a re-analysis of the deposited data

Results flagged for a closer look

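In 13 of 86 groups of 6 tumours examined, a tumour lay far from the others of its group. There was 1 group for each named gene and host, and the genes named for their correlation with a member were not examined. The rule flags about 1 of 20 groups of normally distributed values, which levels from a few counts are not. A group with counts in 1 tumour alone is always flagged and a group without counts never, so the 13 cannot be set against that rate. Among the members, Foxp3 had 0.999 CPM in WT tumour 3, and Ccr8 had 0.352 CPM in Alb-Cre Stat3f/f tumour 1, its only tumour with counts. Among their ligands, Il2 had 1.17 CPM in Alb-Cre Stat3f/f tumour 2 and Cd70 had 0.857 CPM in Alb-Cre Stat3f/f tumour 3, against 1.18 CPM for Cd70 in WT tumour 4. Tnfsf4 had 0.163 CPM in WT tumour 5, from 1 count. All of these rest on 10 counts or fewer. Alb-Cre Stat3f/f tumour 6, which had the highest Tnfrsf9 level of its group, also stood out for Il2rg (92.4 CPM) and the cytotoxic granule gene Nkg7 (32.1 CPM). WT tumour 1, with the highest Tnfrsf9 level of the WT group, stood out for Tnfrsf23 (81.2 CPM) and the basophil gene Mcpt8 (42.3 CPM). WT tumour 5, acinar-rich, stood out for the killer cell receptor gene Klrd1 (2.94 CPM) and the acinar gene Pnliprp1 (6580 CPM). WT tumour 2 stood out for Traf2 (9.16 CPM).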

How the results depend on the processing

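Of 109 values of the members recomputed with another tool, scaling, filter, covariate or denominator, or without the acinar-rich tumours, 100 kept their direction and their side of the threshold. Runs with 1 tumour left out are not among the 109 and are given below. Ratios with a replicate block or without the acinar-rich tumours are among them. No single ratio could pass in those 2 settings, so the side these ratios kept says nothing of their stability. The counts of genes called higher and lower were 614 and 283 with DESeq2, 137 and 36 with the acinar content as a covariate, 83 and 14 without the acinar-rich tumours, and 141 to 471 and 37 to 222 with 1 tumour left out. Tnfrsf18 passed with DESeq2 (log2 fold change 1.08) and without the low-count filter (1.08), and had 0.94 to 1.37 with 1 tumour left out. Without the acinar-rich tumours the sign turned for Ikzf2 (-0.18), for the Foxp3 difference in CPM (0.0864) and for Il2ra relative to the T cell receptor genes (0.0105). Averaging the log ratios of single tumours turned Tnfrsf18 (0.0431) and Cd27 (0.0316) relative to those genes and gave Tnfrsf9 -1.79, which passed, as did -1.63 with Cd3e alone. With 1 tumour left out, log2 fold changes were -0.0241 to 0.16 for Ikzf2, 0.74 to 1.21 for Il2ra, 0.68 to 1.07 for Tnfrsf4, -0.92 to -0.43 for Tnfrsf9 and 0.73 to 1.26 for Cd27, and the Foxp3 difference was -0.19 to 0.0604 CPM. Likewise, Foxp3 relative to Tnfrsf9 was -0.33 to 0.96, and relative to the T cell receptor genes Il2ra was -0.32 to 0.23, Tnfrsf18 -0.18 to 0.11, Cd27 -0.31 to 0.0096 and Tnfrsf9 -1.86 to -1.29. The cause was not tested. Without the acinar-rich tumours 21 relabellings remain, whose smallest p is 0.0476, so no single ratio could pass there after adjustment. Replicate numbers are shared between hosts, but same-numbered tumours did not deviate together (correlations -0.513 to 0.127, own number best in 1 of 6). With a replicate block 145 genes were called higher and 44 lower, 171 of the original 383 calls among them. There, no fold change of a member passed, Cd247, Il2rg, Prdm1 and Ccr7 lost their call, and the smallest p of 0.0312 let no single ratio pass after adjustment. Depth limits Foxp3, Ccr8 and the TNF ligands, which had at most 21 counts in a tumour.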
